A study of Homo sapiens with 4 samples.

Results

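Stem-like prostate cancer cells have been described by a panel of cell surface proteins, aldehyde dehydrogenases and self-renewal factors, and 10 genes of that kind were followed here: CD44, CD24, EPCAM, PROM1, ALDH1A1, ALDH1A3, SOX2, SOX9, KLF4 and BMI1. All 10 were found by symbol among 19871 gene rows of a deposited RNA-seq table. The cells were DU145, an established prostate cancer cell line, grown in medium with 10% serum. The control group was DU145 with the hairpin vector pLKO (2 libraries), and the other group was DU145 with knockdown of TAZ (2 libraries). The series states that 2 independent hairpins against TAZ were used, without saying which library carries which. The title gives the aim of finding target genes of TAZ. Separate cultures are not named in the labels, so p-values here cover only how these libraries vary, possibly for technical reasons, and this variation in the knockdown group also holds the difference between hairpins.

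TAZ is a coactivator of the Hippo pathway that enters the nucleus and binds TEAD transcription factors, and it is encoded by WWTR1. In breast and other epithelial cancers TAZ has been linked to self-renewal and to stem-like states, which is why such markers are commonly read out after its loss. Surface markers such as CD44 and PROM1 are used to sort stem-like cells, aldehyde dehydrogenase activity marks them in dye assays, and SOX2, KLF4 and BMI1 are nuclear factors that sustain self-renewal in embryonic or adult stem cells. The RNA level of a bulk library cannot tell fewer positive cells from less RNA per cell.

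Recovered reads numbered 11669804 to 14789849 per library over gene rows. WWTR1 had normalized counts of 2508 and 3626 in controls 1 and 2 and of 839 and 719 in knockdown 1 and 2. Both knockdown libraries lay far below both controls, at 25.4% of the control mean (log2 fold change -1.96 ± 0.20 SE, limma adjusted p = 0.0086), although no adjusted p was below 0.05 once any 1 library was left out (0.308 to 0.9999). All 5 simple epithelial markers were measured (KRT8, KRT18, KRT19, KRT7 and CDH1), with summed normalized counts of 52116 and 70708 in controls 1 and 2 and of 53063 and 36855 in knockdown 1 and 2. They did not move as one. Both knockdown libraries were below both controls for KRT8 and KRT18 (19.0% of all genes) and above both for CDH1 (18.4%). KRT19 and KRT7 overlapped between the groups. Basal markers (3 of 5 with a row) summed to 58.4 to 106, and neuroendocrine markers (6 of 7 with a row) to 799.6 to 1661, most of it ENO2. Fibroblast markers (5 of 7 with a row) summed to 105 and 55.2 in controls and 171 and 158 in knockdown, most of it COL1A1, with PDGFRA at 0 to 1.15. Leukocyte and endothelial markers (6 of 7 with a row) summed to 1289 and 1346 in controls and 1218 and 1026 in knockdown, most of it CD68, with PTPRC at 0 to 0.886. The part of these markers in the results was not tested.

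No member of the panel changed past the test after TAZ knockdown. Of the 10 members, 7 had a normalized count of at least 1 in at least 2 libraries and were tested. limma called 0 of them at an adjusted p under 0.05, against 0.0113% of the 17737 genes tested (0.00564% higher and 0.00564% lower). edgeR called 0 members against 0.0564% of the same genes, and DESeq2 0 against 0.542% of the 12551 genes with an adjusted p. The authors' deposited table called 0 members against 0.537% of the 12673 genes with an adjusted p there (0.45% higher and 0.0868% lower). CD24 and EPCAM, both higher, had a limma p under 0.05 before adjustment, which held for 4.33% of all genes in that direction, 2.72% in the other and 7.05% in either. The mean log2 value was higher in knockdown for 5 of the 7 members, against 49.0% of genes, and their median log2 fold change was 0.32, against -0.01 over all genes. For CD24, EPCAM and CD44 each knockdown library exceeded each control, as for 18.4% of all genes, and BMI1 was below both, as were 19.0%, so 4 of 7 members stood on one side against 37.4% of genes. SOX9, KLF4 and ALDH1A3 were not separated from the controls in that way.

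**Figure D1:**
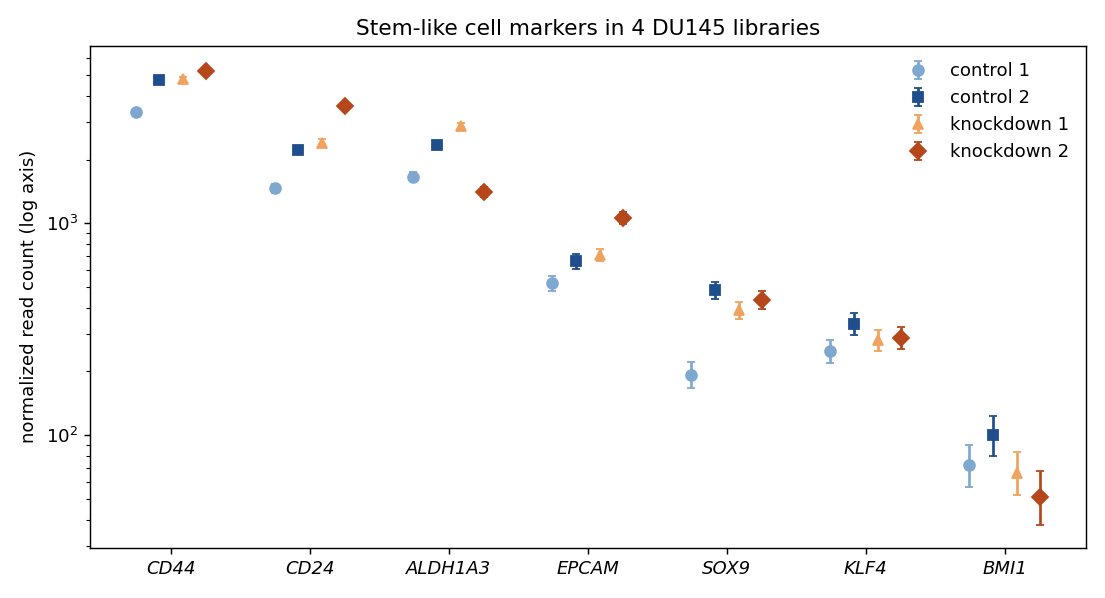
Normalized read counts (log axis) of the 7 tested markers in each of the 4 libraries, ordered by their mean over the 4 libraries; bars are exact Poisson 95% intervals and cover counting error only. Control 1 is the lowest library for CD44, CD24, EPCAM, SOX9 and KLF4, and the knockdown libraries lie on either side of the controls for ALDH1A3.

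Levels between genes were compared per kilobase of the longest protein-coding transcript in GENCODE 29. CD24 and CD44 led in every library, at means of 962 and 791 normalized counts per kilobase. CD24 was above CD44 in control 2 and both knockdown libraries, and in control 1 they were nearly equal at 582 and 586. ALDH1A3 and EPCAM followed with 528 and 428 per kilobase, and they changed places in knockdown 2. KLF4 and SOX9 had 103 and 95.3 per kilobase, with ranges over the libraries of 88.4 to 119 and 49.0 to 123, so their order was not resolved. BMI1 came last of the tested members in each library at 21.1 per kilobase. These means put CD24 at percentile 94.3 and BMI1 at percentile 30.4 of the tested genes with a length.

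CD44 encodes the hyaluronan receptor that is the most widely used marker of stem-like prostate cancer cells. Controls 1 and 2 had normalized counts of 3356 and 4769, and knockdown 1 and 2 of 4789 and 5220. The knockdown libraries were both above the controls, but knockdown 1 and control 2 were almost level, with counting intervals of 4662 to 4918 and 4625 to 4916. The mean went from 4063 ± 999 to 5004 ± 305 (SD, n = 2 each), which on the log2 scale is 0.32 ± 0.19 (SE, 95% interval -0.10 to 0.75; limma adjusted p = 0.762). Without control 1 the log2 fold change was 0.07, and without control 2 it was 0.57. It was 0.16 once each library's trends with GC content and transcript length were taken out.

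CD24 encodes a small glycosylated surface protein anchored by a lipid, and low CD24 beside high CD44 is the classical stem-like profile in breast cancer. CD24 had 1462 and 2222 counts in the controls and 2396 and 3587 in knockdown 1 and 2. Knockdown 2 stood well above both controls. Knockdown 1 was closer to control 2, and their counting intervals overlapped only at the ends (2307 to 2488 against 2124 to 2324). The mean was 1842 ± 538 for the controls and 2992 ± 842 for the knockdown libraries (SD, n = 2 each), 162% of control. The log2 fold change of 0.70 ± 0.24 (SE) had a 95% interval of 0.18 to 1.22 before adjustment, an unadjusted limma p of 0.0132 and an adjusted p of 0.611. It was the largest in size of the 7 tested members in either direction. In the authors' deposited table the log2 fold change of CD24 was 0.51 ± 0.19 (SE), with an adjusted p of 0.356. DESeq2 on the recovered reads gave 0.70 for CD24. For WWTR1 it gave -1.98 where the deposited value was -1.53, and for BMI1 -0.55 where the deposited value was -0.28. The deposited value was nearer 0 for every member, so it is not directly comparable with the other fold changes given here. In limma the log2 fold change of CD24 was 0.40 without control 1 and 0.41 without knockdown 2. Without control 2 it was 1.004, and there DESeq2 on the recovered reads called CD24 (log2 fold change 1.04, adjusted p = 0.0368), the one call of a member in any fit run. GENCODE 29 places CD24 on chromosome 6 and lists the processed pseudogenes CD24P1 on chromosome 1, CD24P2 on 15 and CD24P4 on Y. The level of CD24 is uncertain. Neither the annotation that was counted, and so the copy behind the row, nor the handling of reads that match several copies is stated.

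EPCAM encodes an epithelial adhesion molecule of the cell surface, used to capture carcinoma cells from blood. Controls 1 and 2 had 520 and 661 counts of it, and knockdown 1 and 2 had 709 and 1061. The order of the libraries was the same as for CD24, with control 1 lowest and knockdown 2 highest, and the counting intervals of knockdown 1 (661 to 760) and control 2 (608 to 718) overlapped. The mean went from 591 ± 99.7 to 885 ± 249 (SD, n = 2 each), 150% of control. On the log2 scale that is 0.56 ± 0.22 (SE, 95% interval 0.08 to 1.05 before adjustment), and limma gave an adjusted p of 0.685. It was 0.39 without control 1, 0.27 without knockdown 2, 0.74 without control 2 and 0.85 without knockdown 1.

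Ratios of 2 members within a library do not depend on how libraries were scaled, and 5 such ratios per kilobase were computed for pairs chosen after the values had been seen. The ratio of CD44 to CD24 was 1.01 and 0.941 in the controls, 0.876 in knockdown 1 and 0.638 in knockdown 2. Both knockdown values lay below both controls, with a difference of -0.38 between the mean log2 ratios, against SDs of 0.07 in controls and 0.32 in knockdown (n = 2 each). The counting interval of knockdown 1 (0.837 to 0.918) overlapped that of control 2 (0.891 to 0.993), and that of knockdown 2 (0.611 to 0.666) lay below all others. The ratio of EPCAM to CD24 was 0.434, 0.432 and 0.431 in control 2, knockdown 1 and knockdown 2, and 0.519 in control 1. There too both knockdown values lay below both controls, though control 2 was almost level with them. ALDH1A3 to CD44 stood at 0.724 and 0.716 in the controls, 0.879 in knockdown 1 and 0.395 in knockdown 2. EPCAM to CD44 was 0.516 and 0.461 in the controls, 0.492 in knockdown 1 and 0.676 in knockdown 2. SOX9 to KLF4 was 0.555 in control 1, and 1.03, 0.992 and 1.08 in control 2, knockdown 1 and knockdown 2. The groups overlapped for these last 3 ratios. With 2 libraries a group, an exact two-sided permutation test cannot go below p = 0.333, so no p is given for these ratios.

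PROM1 encodes CD133, a membrane protein of cell protrusions by which tumour-initiating cells of several tissues have been sorted. It was not detectable at this depth beyond single reads, with 0, 1, 0 and 0 reads in control 1, control 2, knockdown 1 and knockdown 2. A count of 0 allows up to 3 reads, which is a normalized count of 2.78 in control 1, 2.66 in knockdown 1 and 3.13 in knockdown 2. No comparison between the groups could be made for it.

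ALDH1A1 and ALDH1A3 encode cytosolic enzymes that oxidise retinaldehyde to retinoic acid, and their activity underlies the dye assay for stem-like cells. ALDH1A1 had the same reads as PROM1, 1 in control 2 and 0 in the other libraries, so it was likewise at or under the limit in all 4. ALDH1A3 was abundant, with 1663 and 2338 counts in the controls, 2881 in knockdown 1 and 1410 in knockdown 2. Knockdown 1 was above both controls and knockdown 2 below both, a pattern shown by 11.2% of all genes tested (with either knockdown library the higher one). The means were 2001 ± 477 and 2146 ± 1040 (SD, n = 2 each), and the log2 difference of 0.03 ± 0.29 (SE) had a 95% interval of -0.61 to 0.67 (limma adjusted p = 0.993). The direction rested on which library was used, at -0.48 without knockdown 1 and 0.55 without knockdown 2, and at -0.21 without control 1 and 0.28 without control 2. The antisense gene AC015712.2 covers 27.5% of the exon bases of ALDH1A3 in GENCODE 29, and without strand marking in the described kit their reads cannot be told apart.

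**Figure D2:**
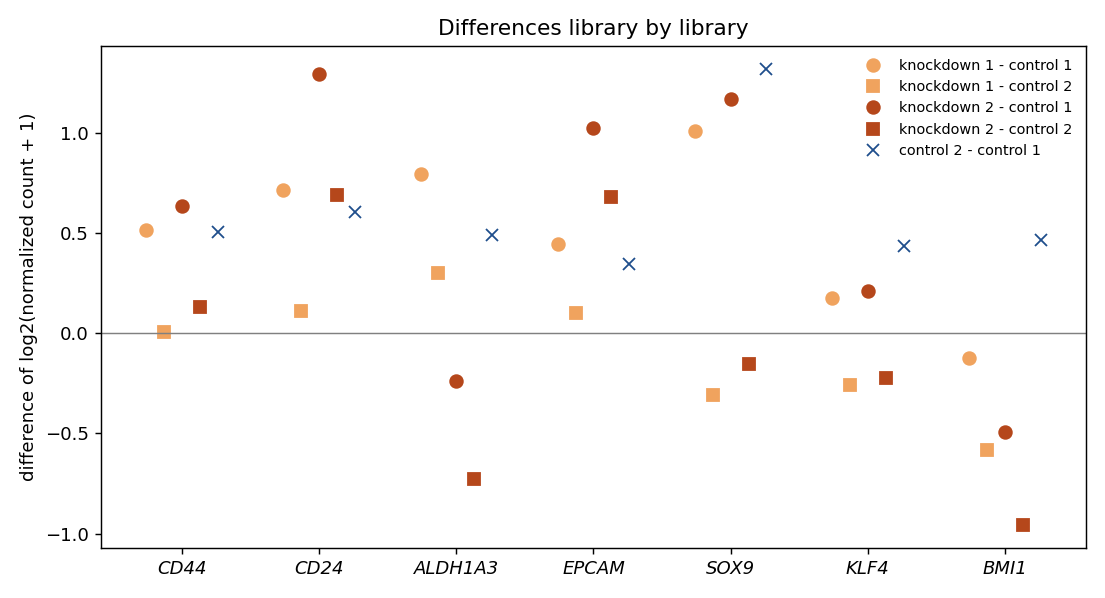
Differences of log2(normalized count + 1) between single libraries for the 7 tested markers: each knockdown library minus each control (filled symbols) and control 2 minus control 1 (crosses). The crosses are above 0 for every marker shown, from 0.35 for EPCAM to 1.32 for SOX9, and the 4 filled symbols are all above 0 for CD44, CD24 and EPCAM and all below 0 for BMI1.

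The controls differed from each other across the panel. Control 1 was the lowest of the 4 libraries for 5 of the 7 tested members, as it was for 26.0% of all genes tested. The median log2 difference of control 2 minus control 1 was 0.49 over the 7 members and 0.01 over all genes tested. The median of knockdown 1 minus control was 0.51 against control 1 and 0.01 against control 2. For knockdown 2 it was 0.64 against control 1 and -0.15 against control 2. The median log2 fold change of the 7 members, 0.32 with all libraries, was -0.21 when control 1 was left out, 0.57 with control 2 left out and 0.27 with knockdown 2 left out.

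SOX2 is a core pluripotency factor and SOX9 a factor of ductal and prostate bud progenitors, both with a DNA-binding domain of the HMG type. SOX2 had 1 read in knockdown 1 and 0 in the other 3 libraries, so it was not detectable at this depth. SOX9 had 193 and 483 counts in the controls and 390 and 435 in knockdown 1 and 2. The knockdown libraries were close together, between control 1 and control 2. The means were 338 ± 205 and 412 ± 31.8 (SD, n = 2 each), and the log2 difference of 0.43 ± 0.34 (SE) had a 95% interval of -0.32 to 1.18 (limma adjusted p = 0.822). The direction turned with the control used, at -0.23 without control 1 and 1.09 without control 2.

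KLF4 is a zinc finger factor of epithelial differentiation that is also used to reprogram cells to pluripotency. Controls 1 and 2 had 249 and 336 counts, knockdown 1 and 2 had 281 and 288, and both knockdown libraries lay between the controls. The means were 292 ± 61.7 and 284 ± 4.92 (SD, n = 2 each), and the log2 difference was -0.02 ± 0.22 (SE; limma adjusted p = 0.993). The 95% interval of -0.50 to 0.45 leaves room for folds of 0.706 to 1.37. It was -0.24 on leaving out control 1, 0.19 on leaving out control 2 and 0.06 with the length and GC trend removed. A processed pseudogene, KLF4P1, is annotated on chromosome 9.

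BMI1 is a subunit of polycomb repressive complex 1 that holds the INK4A locus silent and is needed for self-renewal of adult stem cells, in mouse prostate among others. It was the lowest of the tested members, with 72.4 and 100.1 counts in the controls and 66.4 and 51.1 in knockdown 1 and 2. Both knockdown libraries were below both controls, on 49 to 87 reads per library. The counting interval of control 1 (57.2 to 90.3) overlapped those of knockdown 1 (52.2 to 83.3) and knockdown 2 (37.8 to 67.5). That of control 2 (80.15 to 123.4) overlapped knockdown 1 at the ends and lay above knockdown 2. The mean was 86.2 ± 19.6 for the controls and 58.7 ± 10.9 for the knockdown libraries (SD, n = 2 each), 68.1% of control. On the log2 scale this is -0.54 ± 0.32 (SE, 95% interval -1.24 to 0.16), for which limma gave an adjusted p of 0.754. Leaving out control 1 gave -0.77, leaving out control 2 gave -0.31 and leaving out knockdown 2 gave -0.35. The read-through gene COMMD3-BMI1 shares 1000 bases with BMI1 in GENCODE 29, 23.3% of its exon bases, and a pseudogene BMI1P1 lies on chromosome X, so its level is uncertain.

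**Figure D3:**
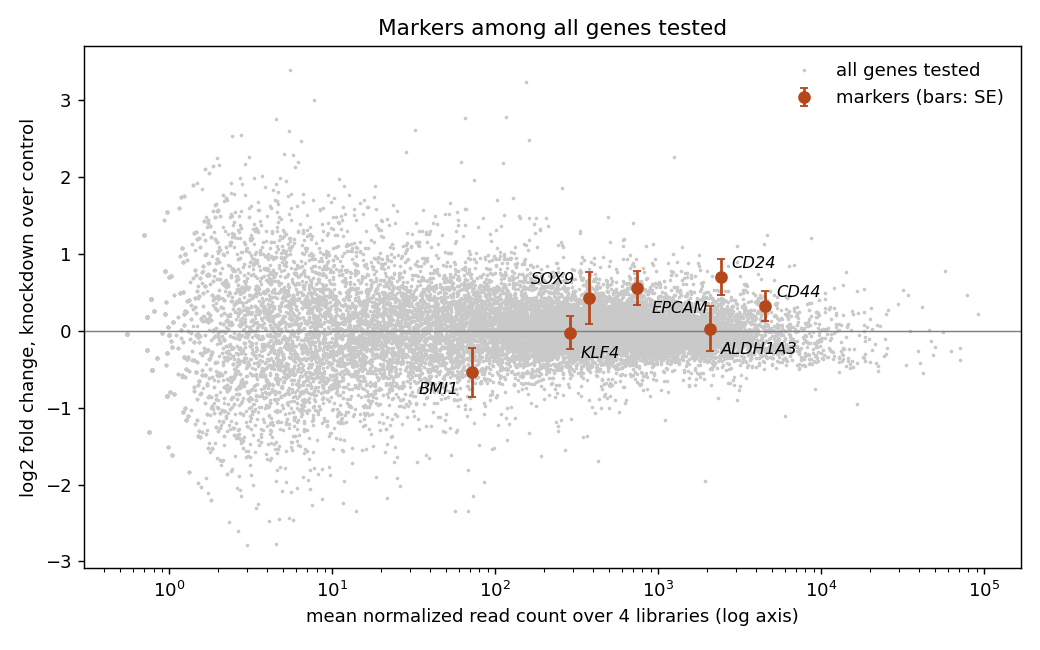
Log2 fold change of knockdown over control against the mean normalized read count over 4 libraries (log axis) for all 17737 genes tested (grey) and the 7 tested markers (orange, bars are the SE). CD24 lies at 0.70, EPCAM at 0.56 and BMI1 at -0.54, and no marker passed limma.

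Promoter windows were read from RefSeq (GRCh38.p14, 250 bases before to 50 bases after a start) because TAZ reaches DNA through TEAD factors. They were found for 8 of the 10 members, in 14 windows, and were missing for EPCAM and SOX9. The TEAD core GGAATG, searched on both strands, stood in 2 of these 14 windows, near the share of 14.03% over all 35116 windows. They were 1 of 3 windows of CD24 and 1 of 2 of BMI1. CD24 and BMI1 had the largest log2 fold changes of the tested members in each direction, neither past the test. EPCAM, with the next largest rise, and SOX9 had no window, and a link of the core with the fold changes was not tested. Of the windows of CD24 and BMI1 only the 2 with the core are shown, and capitals mark the core. In the CD24 window (chr6:106973990-106974289, minus strand) it begins 130 bases before the start, and in the BMI1 window (chr10:22320849-22321148, plus strand) 83 bases before. The AP-1 motif TGANTCA, searched the same way, was in neither window shown and stood in 1 window of PROM1, against 7.71% of all windows. A match of letters is a description and not a binding site.
CD24: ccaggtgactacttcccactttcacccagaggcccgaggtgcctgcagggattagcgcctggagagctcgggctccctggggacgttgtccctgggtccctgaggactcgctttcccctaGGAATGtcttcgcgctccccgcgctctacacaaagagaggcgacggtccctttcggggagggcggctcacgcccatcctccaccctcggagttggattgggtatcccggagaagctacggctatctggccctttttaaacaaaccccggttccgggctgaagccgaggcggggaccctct
BMI1: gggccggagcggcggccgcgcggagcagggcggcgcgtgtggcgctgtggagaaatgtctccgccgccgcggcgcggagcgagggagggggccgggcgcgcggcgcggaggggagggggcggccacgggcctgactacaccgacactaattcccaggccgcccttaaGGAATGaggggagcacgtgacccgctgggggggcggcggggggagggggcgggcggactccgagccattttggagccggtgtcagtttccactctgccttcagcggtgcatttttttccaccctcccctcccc

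The difference between the knockdown libraries was tested with each of them as its own group, so that only the 2 controls inform the spread. limma draws the spread of each gene toward the trend over all genes in these controls. limma called 0 members and 0% of the 17737 genes, of which 2.95% had p under 0.05 before adjustment. ALDH1A3 was the member with the largest difference, at -1.03 ± 0.31 (SE) for knockdown 2 minus knockdown 1, with a 95% interval of -1.78 to -0.28 and a limma adjusted p of 1. edgeR gave ALDH1A3 an adjusted p of 0.102, where it called 0.327% of genes. DESeq2 gave it an adjusted p of 1 (0.00561 before adjustment), where it called 0.071% of the 14092 genes with an adjusted p. CD24 and EPCAM were both 0.58 higher in knockdown 2, with intervals of -0.25 to 1.41 and -0.13 to 1.29. KLF4 differed by 0.04, SOX9 by 0.16, CD44 by 0.12 and BMI1 by -0.37, and each interval held 0.

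**Figure D4:**
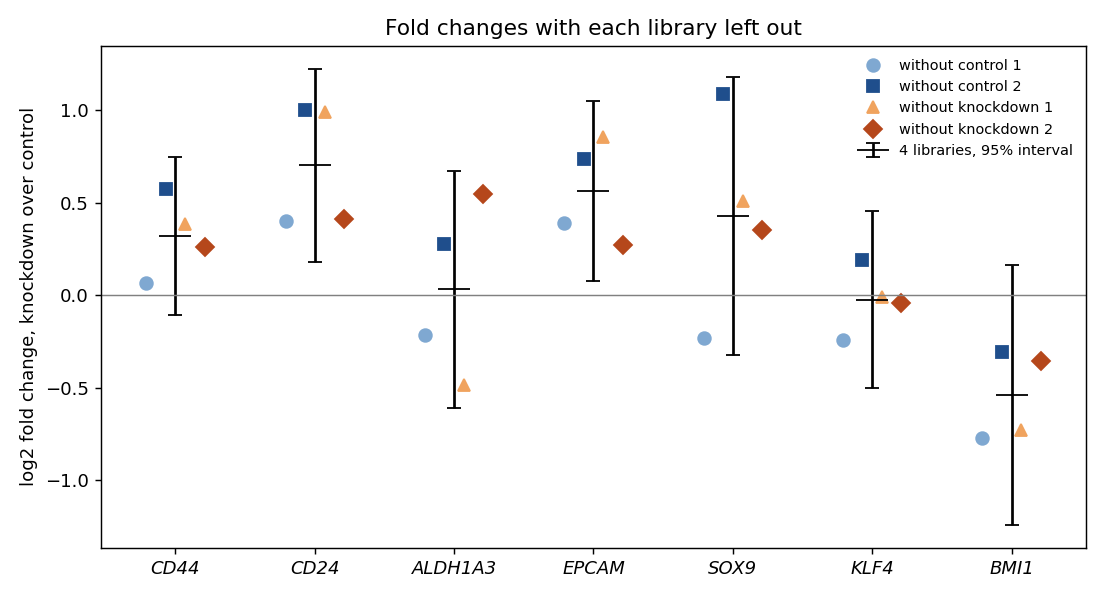
Log2 fold change of knockdown over control for the 7 tested markers with all 4 libraries (black bar, limma 95% interval before adjustment) and with 1 library left out (symbols). The values without control 1 are the lowest for CD44, CD24, SOX9, KLF4 and BMI1, and ALDH1A3, SOX9 and KLF4 have symbols on both sides of 0.

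Genes known to work with the panel were counted in 9 lists that leave out the 10 members, and limma called 0 genes in each. From each list up to 4 tested genes with the smallest limma p are named, and their adjusted p ranged from 0.152 to 0.870.

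Of 13 tested EPCAM partners, 11 had a higher mean (49.0% of all genes did), 6 were above both controls (18.4% of all genes) and 0 below both (19.0%). The median log2 fold change was 0.18, and 0.09 to 0.37 when 1 library was left out. ST14, the protease matriptase, had 193 ± 17.7 counts in controls and 472 ± 71.2 in knockdown, and its inhibitor SPINT1 had 656 ± 20.3 against 1255 ± 96.2 (SD over 2 libraries). DESeq2 on the recovered reads called both (adjusted p = 6.5e-04 and 0.0036), and so did the authors' deposited table, whereas limma did not (adjusted p = 0.152 and 0.189). CLDN7, a claudin that binds EPCAM, had 235 and 232 counts in controls and 370 and 506 in knockdown 1 and 2 (limma adjusted p = 0.399). Each knockdown library exceeded each control for ST14, SPINT1 and CLDN7.

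Of 21 tested genes of CD44 and hyaluronan, 11 had a higher mean (49.0% of all genes), 7 were above both controls (18.4% of all genes) and 3 below both (19.0%). The median of 0.07 turned to -0.03 when knockdown 1 was left out, and was 0.20 with knockdown 2 left out. ESRP1, a splicing factor that favours the variant exons of CD44 in epithelial cells, had 20.4 and 14.95 counts in controls and 41.6 and 169 in knockdown 1 and 2. DESeq2 (adjusted p = 0.0111) and the authors' deposited table called it, and limma did not (adjusted p = 0.412). CEMIP, a hyaluronan-degrading factor, had 1399 and 1105 in controls against 1674 and 2961, and HAS2, a hyaluronan synthase, had 16.7 and 32.2 against 37.2 and 56.3. SPP1, which encodes the CD44 ligand osteopontin, was low, with 0.928 and 1.15 counts in controls against 3.54 and 8.34, on 1 to 8 reads per library.

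Other surface and efflux markers of stem-like cells were tested for 22 genes, of which 15 had a higher mean (49.0% of all genes), 8 were above both controls (18.4% of all genes) and 3 below both (19.0%). The median was 0.27, but 0.06 when control 1 and 0.15 when knockdown 1 was left out. ITGA2, an integrin used to sort basal prostate stem cells, had 1759 and 4006 counts in controls and 5134 and 7691 in knockdown 1 and 2 (limma adjusted p = 0.448). Its partner ITGB1 had 13773 and 15917 in controls against 21295 and 21883 (limma adjusted p = 0.626). L1CAM, an adhesion molecule, had 125 and 166 against 212 and 276, and the receptor gene KIT was low at 1.15 to 13.5 counts. In these 4 genes, both knockdown libraries were above both controls.

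Of 17 other aldehyde dehydrogenase genes tested, 4 had a higher and 13 a lower mean (49.0% of all genes were higher), 4 were below both controls, near the 19.0% of all genes, and 1 was above both (18.4%). The median of -0.11 did not keep its sign when knockdown 2 was left out (0.0076), and was -0.02 with control 1 and -0.24 with control 2 left out. ALDH3B1 had 1538 and 1019 counts in controls and 1102 and 494 in knockdown 1 and 2, while ALDH1L2, a mitochondrial folate enzyme, had 172 and 179 against 208 and 255. ALDH1L1 and ALDH3B2 were at 4.64 counts or less. Of 20 tested retinoic acid genes, 5 had a higher and 15 a lower mean (49.0% of all genes were higher), 6 were below both controls (19.0% of all genes) and 0 above both (18.4%). The median was -0.16, and -0.26 to -0.12 when 1 library was left out. DHRS3, a retinaldehyde reductase, had 493 and 187 counts in controls and 152 and 116 in knockdown 1 and 2 (limma adjusted p = 0.596). RARRES3, known as induced by retinoids, had 109 and 66.7 against 40.7 and 42.7, and the receptor RARG had 1073 and 838 against 786 and 735. STRA6, the receptor that takes up retinol, had 23.2 and 37.96 against 70.8 and 33.3.

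Of 22 other polycomb genes, 13 had a higher and 9 a lower mean, 2 were above both controls (18.4% of all genes) and 3 below both (19.0%). The median was 0.04, and -0.05 with control 2 left out. PHC3, a subunit of polycomb complex 1, had 986 and 1510 counts in controls and 1706 and 1634 in knockdown 1 and 2. RING1, a ubiquitin ligase of that complex, had 1086 and 1067 against 948 and 931. PCGF6, a BMI1 paralog, had 263 and 322 against 253 and 231, and JARID2, a partner of complex 2, had 724 and 1306 against 1343 and 1297. The 2 libraries of a group lay closest for RING1, and JARID2 overlapped between the groups.

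The 9 tested pluripotency factors had a median of 0.08, the 13 other SOX genes 0.06 and the 15 other KLF genes 0.14. None of these 3 medians kept its sign when each library was left out in turn, with ranges of -0.23 to 0.10, -0.12 to 0.66 and -0.06 to 0.18. Above both controls were 2, 3 and 3 genes of these lists (18.4% of all genes), and below both were 1, 2 and 3 (19.0%). MYC had 1636 and 2551 counts in controls against 1830 and 1691, ZFP42 had 169 and 156 against 189 and 214, and the DNA methyltransferase DNMT3B had 87.2 and 89.7 against 73.5 and 72.96. SOX4 had 520 and 486 against 652 and 902, SOX13 had 406 and 583 against 393 and 366, and SOX15 had 78.8 and 125 against 91.2 and 56.3. SOX10 was at 2.78 counts or less. KLF7 had 237 and 337 against 410.0 and 543, KLF12 had 95.5 and 94.3 against 114 and 200.1, and KLF2, on both lists, had 54.7 and 202 against 70.8 and 44.8. KLF15 was at 3.71 counts or less. MYC, SOX15 and KLF2 overlapped between the groups, SOX4, ZFP42, KLF7 and KLF12 were above both controls, and DNMT3B, SOX13 and the low genes SOX10 and KLF15 were below both.

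**Figure D5:**
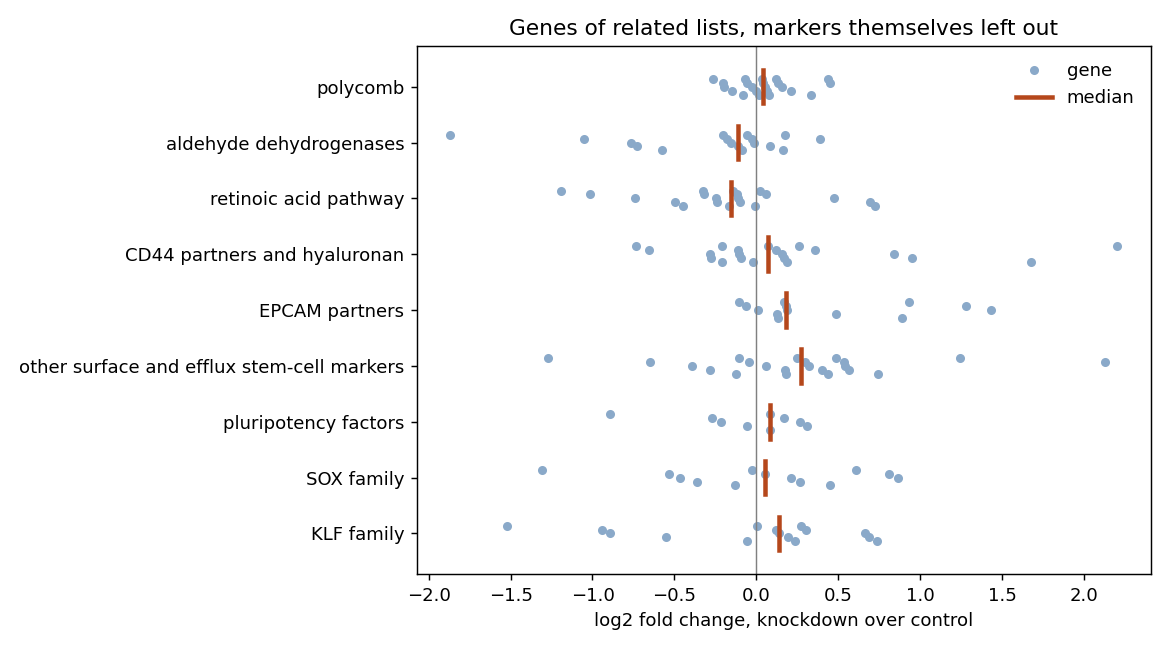
Log2 fold change of knockdown over control for the tested genes of 9 related lists, with the 10 markers themselves left out; each point is a gene and each bar the median of a list. Medians run from -0.16 for the retinoic acid pathway to 0.27 for other surface and efflux stem-cell markers, and 6 of the 9 change sign when 1 library is left out.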

How the data were processed

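The deposited table gives, per gene symbol, the signal of each of 4 RNA-seq libraries as read counts divided by 1 size factor per library. Per the file headers, the authors also deposited a mean signal, a log2 fold change with SE, a test score and a p-value, raw and adjusted. The submitters' processing notes name STAR, hg19 and DESeq2, without versions; the read counter and annotation are not stated. All deposited values (100% per library, tolerance 0.001 reads) came out whole when divided by the library's smallest value above 0, which returned the reads. Of 19897 rows, 26 with symbols turned into dates were left out (0.153 to 0.191% of a library's reads).

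Genes with a value of at least 1 in at least 2 libraries (17737) were tested with limma (version 3.58.1, R 4.3.3) on log2(value + 1) with an intensity trend and no replicate block. Fold changes on that scale understate changes of low genes. p-values were adjusted by Benjamini-Hochberg over all tested genes, threshold 0.05. The difference between knockdown libraries was tested in a 3-group limma fit. edgeR (version 4.0.16, quasi-likelihood) and DESeq2 (version 1.42.0) on recovered reads, other pseudocounts, filters and scalings, removal of length and GC trends (splines with 4 degrees of freedom; 14583 tested rows with a length) and leaving out each library were alternatives. The fits were tested on simulated data. Transcripts came from GENCODE 29 (GRCh38), another build than hg19, so coordinates are printed only for RefSeq promoter windows (GRCh38.p14).

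Intervals on counts are exact Poisson 95% intervals, those on ratios use the same counts on a log scale, and both cover counting error only. Where a count was 0, a fixed limit of 3 reads was used, below the upper end of the exact Poisson interval (3.69 reads). The members and lists were chosen with earlier results of these data known. Named were all members, WWTR1, up to 4 genes per related list with the smallest limma p, and the 3 genes closest in pattern to the member with the largest fold change. Cell type markers come from separate lists. Results for some items of these lists are not reported here.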

Additional observations from a re-analysis of the deposited data

Results flagged for a closer look

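ALDH1A3 stood on opposite sides of the controls in the 2 knockdown libraries, above both in knockdown 1 and below both in knockdown 2. Knockdown 2 minus knockdown 1 was -1.03 on the log2 scale. The 3-group limma test of that difference did not pass after adjustment (unadjusted p = 0.0155, adjusted p = 1). Its spread came from the 2 controls, with the value of the gene drawn toward the trend over all genes.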

How the results depend on the processing

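No member was called by limma, edgeR or DESeq2 with all 4 libraries, nor by limma under any other pseudocount, filter, scaling, length and GC correction, replicate block or left-out library; DESeq2 without control 2, chosen after seeing the data, called 1 (CD24). Over all genes, limma called 2, edgeR 10, DESeq2 68 and limma with the replicate block 7, with no change of a member's call under the block. The deviations of same-numbered libraries correlated at -0.04 across genes. That value cannot settle whether these libraries were paired, since the knockdown deviation may also hold a difference between hairpins. Without each library limma called 0 genes and DESeq2 4 to 80 (12 and 79 with control 1 or 2 left out, 80 and 4 with knockdown 1 or 2 left out). For knockdown 2 minus knockdown 1, limma called 0 genes, but 26 with values of at least 10 and 27 after removing trends with length and GC, while edgeR called 58 and DESeq2 10; without either control that fit has no test. The median of tested members ranged from -0.21 to 0.57 without each library (DESeq2 -0.12 to 0.58). Leaving out libraries turned the direction of ALDH1A3 (-0.48 to 0.55; DESeq2 -0.50 to 0.53), SOX9 (-0.23 to 1.09; DESeq2 -0.23 to 1.10), KLF4 (-0.24 to 0.19; DESeq2 -0.24 to 0.20) and MYC (-0.54 to 0.10), and also of the low KLF family gene KLF2 (-1.83 to 0.042). Removing the length and GC trend turned KLF4 to 0.062 and RING1 to 0.0061. The cause was not tested. At this depth PROM1, ALDH1A1 and SOX2 could not be compared and BMI1 rests on under 100 reads per library.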

Other observations

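CD24 was the tested member with the largest log2 fold change among those with a mean count of at least 100, and the 3 of 10235 other such genes closest to it over the 4 libraries (Euclidean distance of centred log2 values) were DENND1B, ZBTB41 and CRYBG3, at 0.11 each. DENND1B, a regulator of RAB GTPases, had 102 and 167 counts in controls and 163 and 248 in knockdown 1 and 2. ZBTB41, a zinc finger protein, had 236 and 328 in controls and 359 and 527 in knockdown 1 and 2. CRYBG3 had 187 and 301 in controls and 343 and 480 in knockdown 1 and 2. EPCAM stood at a distance of 0.23, the 24th closest of these genes, and ALDH1A3 at 1.32. BMI1 was not compared, since its mean count is under 100. The likeness is over 4 libraries and says nothing of shared function.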
